A study of Homo sapiens with 39 samples.

Results

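The response of HepaRG cells to increasing concentrations of 2-deoxyglucose (2DG) was examined in 3 libraries of the 39 in the series, those whose titles name 2DG at 1.25, 5 and 10 mM. HepaRG is a human hepatoma line whose differentiated cultures mix cells resembling hepatocytes with cells resembling bile duct epithelium and keep much of the drug metabolism of liver. Differentiated cells received 2DG in medium once a day for 3 days and were harvested 7 h after the last dose, at 55 h of exposure. The matched media control, called the 2DG control here, received medium alone. The media controls set up beside sodium chloride (NaCl), sodium ascorbate (ASC) and ampicillin trihydrate (AMP) are named after those chemicals, although they also received medium alone, and they gave the spread between untreated libraries. In the study 2DG was classed among the chemicals that do not damage DNA, and its top concentration was the 10 mM limit.

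All 7 libraries came from the same cell line with no genetic change. RNA of 3 cultures was pooled into 1 library per condition, so no dose has replicates and the spread between cultures of a dose is not in the data. A gene was measured by reads of a single amplified target, in reads per 1000000 reads of the library (RPM), and levels are not compared between genes because amplicons differ in efficiency. The 7 libraries held 9843225 to 16425527 reads, and 74.6 to 77.0% of the 20802 targets had at least 1 read. Of 10 hepatocyte markers, all 10 were above 1 RPM in every one of the 7 libraries, and their summed level was 21508 to 31305 RPM with 2DG against 26038 to 34540 RPM in the 4 media controls. Albumin (ALB) made up most of that sum in the 2DG libraries and the 2DG control, so the sum mainly follows that gene. Of 11 measured cholangiocyte-like markers, 7 were above 1 RPM in all 7 libraries, with sums of 1163 to 1330 RPM against 1094 to 1481 RPM. Markers of both cell types of a HepaRG culture were therefore detected, though the libraries do not show which cells held them. In such mixed libraries fewer cells of a type and less RNA per cell cannot be told apart.

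2DG is a glucose analogue that lacks the hydroxyl group at the second carbon. Hexokinase phosphorylates it, and the product is trapped because glycolysis cannot take it further. The trapped phosphate is read by MondoA and ChREBP, the glucose-sensing factors that switch on TXNIP and ARRDC4, both of which curb glucose uptake. 2DG also resembles mannose and enters the assembly of N-linked glycans, which can leave proteins misfolded in the endoplasmic reticulum and call up the chaperone HSPA5 through ATF6 and XBP1, or DDIT3 and ASNS through ATF4. These pathways set the order of the results.

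Stretches of 5 promoters are shown because they carry sequence elements known from the pathways described here. HSPA5 and TXNIP are the standard reporters of the 2 actions of 2DG. LRG1, ITIH4 and VTN are secreted liver proteins that stood at the lower end of the dose series below. Each is given 5′ to 3′ on the gene's strand, from RefSeq windows of 250 bases before the start site on GRCh38.p14, with the element in capitals and up to 25 bases on either side. All 5 lie on the minus strand: HSPA5 at chr9:125241366-125241434, TXNIP at chr1:145996626-145996692, LRG1 at chr19:4540165-4540223, ITIH4 at chr3:52830713-52830771 and VTN at chr17:28370383-28370441.
HSPA5: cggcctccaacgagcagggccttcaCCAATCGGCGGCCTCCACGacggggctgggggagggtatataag
TXNIP: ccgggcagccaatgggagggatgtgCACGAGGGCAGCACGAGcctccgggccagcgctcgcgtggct
LRG1: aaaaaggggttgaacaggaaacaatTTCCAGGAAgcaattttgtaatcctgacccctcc
ITIH4: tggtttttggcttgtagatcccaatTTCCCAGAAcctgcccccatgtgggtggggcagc
VTN: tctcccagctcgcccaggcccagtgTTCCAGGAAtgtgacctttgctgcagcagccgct

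Capitals in HSPA5 mark the endoplasmic reticulum stress response element (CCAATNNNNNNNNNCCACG), which starts 66 bases before the start site and occurs in 0.0740% of the 35116 windows, searched on both strands. Capitals in TXNIP mark the carbohydrate response element bound by ChREBP and MondoA (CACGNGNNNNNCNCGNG), 88 bases before the start site, which 0.424% of windows held. The capitals in LRG1, ITIH4 and VTN mark the palindromic pattern bound by STAT3 (TTCNNNGAA), the factor through which interleukin-6 drives liver acute-phase genes, at 162, 74 and 109 bases before their start sites. That short pattern occurred in 6.57% of windows. A match describes these letters only.

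Libraries with barcodes 33 to 38 differed from most others in a set of targets chosen from the 4 media controls alone. Among 11562 targets with at least 10 reads in all 39 libraries, 488 were over 2-fold lower in the ASC and AMP controls (barcodes 34 and 35) than in the 2DG and NaCl controls (barcodes 16 and 6), and 20 were over 2-fold higher. The mean level of those 488 targets, in log2(RPM + 1), was 3.25 to 4.08 in the 6 libraries with barcodes 33 to 38 and 4.02 to 5.15 in the other 33. The 1.25 mM library (barcode 36) had 3.75, the 5 mM library (barcode 8) 5.15 and the 10 mM library (barcode 39) 4.50. The choice of targets fixed where the 4 controls lie but not the 3 doses, and the ranges of the 2 barcode groups overlap slightly. The lowest dose was near the ASC and AMP controls on this measure, and the upper doses were nearer to the 2DG and NaCl controls. What gave barcodes 33 to 38 their profile was not tested.

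Few genes at the upper doses of 2DG lay beyond 2-fold of the 2DG control. Ratios were taken on log2(RPM + 1), which understates the change of low genes, over the 13307 genes that passed the count filter. At 5 mM 15 genes (0.113%) were over 2-fold higher and 16 (0.12%) over 2-fold lower. At 10 mM 5 genes (0.0376%) were higher and 35 (0.263%) lower. Both doses stood closer to the 2DG control than did the nearest untreated library, the NaCl control, with 65 genes higher and 36 lower.

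At 1.25 mM 13 genes (0.0977%) were over 2-fold higher and 443 (3.33%) over 2-fold lower than in the 2DG control. Of those 443, 304 belonged to the 488 targets of the barcode split, all of which are among the 13307 genes. At 5 mM 2 of the 16 lower genes belonged to them, and at 10 mM 16 of the 35. Those targets were chosen partly for a high level in the 2DG control, to which these ratios were taken. Part of the overlap is therefore built in. The ASC control had 702 genes lower and the AMP control 529, with no chemical in either. Set against the mean of the ASC and AMP controls, which share its side of the barcode split, the 1.25 mM library had 19 genes higher and 16 lower. The number of lower genes at the lowest dose was thus below that of both untreated libraries with neighbouring barcodes.

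**Figure D1:**
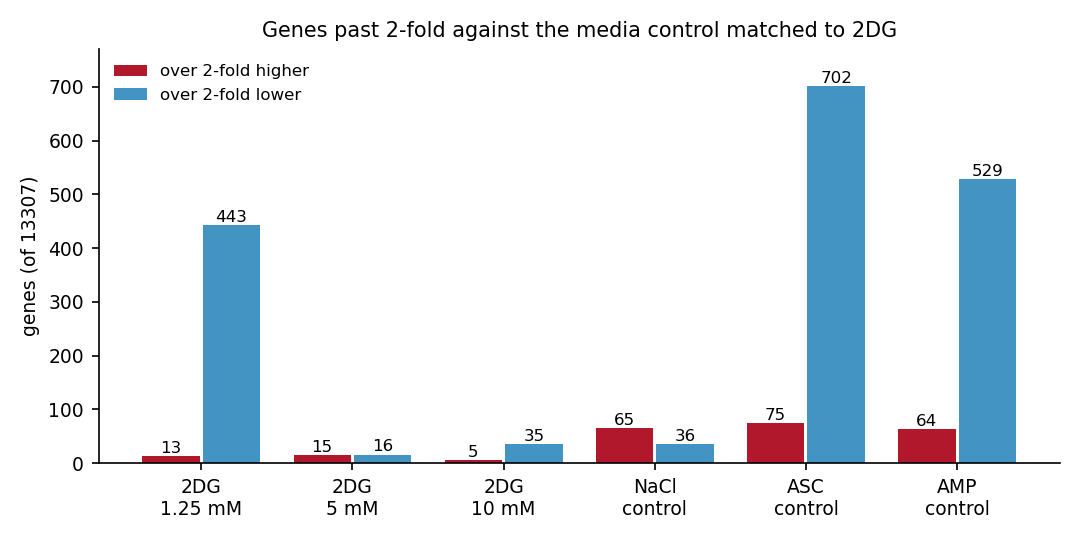
Number of genes over 2-fold higher (red) or lower (blue) than in the media control matched to 2DG, of 13307, for the 3 2DG libraries and the 3 other media controls. The ASC and AMP controls reach 702 and 529 lower genes and the 1.25 mM library 443, whereas the 5 and 10 mM libraries stay at 16 and 35.

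No gene was called along the 2DG dose. A slope on log2(1 + mM) was fitted to the 7 libraries with the quasi-likelihood test of edgeR, which leaves 5 residual degrees of freedom, and the slope is a log2 change in level per doubling of (1 + mM). At an adjusted p under 0.05, 0 genes (0%) were higher and 0 (0%) lower. At an unadjusted p under 0.05, 290 (2.18%) were higher and 477 (3.58%) lower. With 1 library per dose, 0 calls do not show that genes did not respond. Without the 2DG control edgeR called 5 genes lower (AGXT, C8A, HPX, LRG1 and SERPINC1) and 0 higher. DESeq2 on the same 7 libraries called 1 gene higher (0.00751%) and 14 lower (0.105%). All 3 2DG libraries lay above all 4 media controls for 537 genes (4.04%) and below them for 297 (2.23%). The same counts were taken for the 3 dosed libraries of each other chemical in medium. They were 352 above and 513 below for NaCl, 271 and 602 for AMP, and 658 and 1135 for ASC. The count above was thus smaller for NaCl and AMP than for 2DG, and the count below was larger for all 3 chemicals. Barcodes 33 to 38 held 1 of the 3 2DG libraries, 0 dosed NaCl, AMP or ASC libraries, and the ASC and AMP controls. The chemicals are therefore not compared on equal terms, and these counts are not read as an effect of 2DG. With TMM scaling the 2DG counts were 352 above and 421 below, so which direction held more genes depends on the scaling. For NaCl, AMP and ASC they were taken in RPM only.

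Genes of glucose uptake and glycolysis gave no call along the 2DG dose. Of 25 tested members, 0 were called, 0 were higher and 1 (GCKR) was lower at an unadjusted p under 0.05, and the median log2 ratio to the 2DG control was 0.06, -0.01 and 0.06 at 1.25, 5 and 10 mM, beside 0.03, 0.01 and 0.01 over all genes. The 3 2DG libraries lay above the 4 media controls for 5 members (4 with TMM scaling) and below for 0, beside 4.04% and 2.23% of all genes. They include SLC2A1, the glucose transporter GLUT1, at 315.7, 273 and 287 RPM with 2DG in order of dose, against 257 RPM in the 2DG control and 196 to 249 RPM in the other controls. Its levels did not follow the dose, and the slope of 0.10 ± 0.05 (SE) had an edgeR adjusted p of 0.79. PKLR, the liver pyruvate kinase and a ChREBP target, was at 4.80, 5.38 and 6.47 RPM against 4.09 RPM in the 2DG control, inside the 4.09 to 8.82 RPM of the 4 controls. HK2, the inducible hexokinase, stayed at 0.70 to 1.21 RPM against 1.02 to 1.52 RPM, and SLC2A2, the hepatocyte glucose transporter, was at or below 0.76 RPM in all 7 libraries and did not pass the filter.

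The glucose-sensing genes gave 0 calls among 20 tested members, with 0 higher and 2 lower (GPD1 and ACACB) at an unadjusted p under 0.05. Their median log2 ratios were 0.20, -0.06 and 0.15 in order of dose. TXNIP, which binds thioredoxin and slows glucose uptake, was at 17.1 RPM in the 2DG control and at 20.0, 22.3 and 27.6 RPM with increasing dose. These values follow the dose within the 2DG set, but the other untreated libraries spanned 12.8 to 30.6 RPM, so the doses and controls overlap. The slope was 0.09 ± 0.09 (edgeR adjusted p = 0.84). With barcodes 33 to 38 as a term it was 0.19 ± 0.08 (adjusted p = 0.68), a setting chosen after the data were seen.

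ARRDC4, the arrestin-like partner of TXNIP in restraining glucose uptake, was at 2.61, 2.69 and 2.51 RPM with 2DG against 1.43 RPM in the 2DG control and 1.12 to 1.93 RPM in the others. All 3 doses thus lay above the 4 controls, with no order among the doses. These levels rest on few reads: at 10 mM the exact binomial 95% interval was 1.70 to 3.56 RPM, and in the AMP control 1.22 to 2.90 RPM, so the 2 overlap. The slope of 0.21 ± 0.10 had an edgeR adjusted p of 0.79. Such intervals cover counting error only, since amplified reads without molecular identifiers are not independent molecules.

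Gluconeogenesis, glycogen and pentose phosphate genes had 24 tested members, of which 0 were called and 1, PCK2, was lower at an unadjusted p under 0.05. The medians were 0.13, -0.06 and 0.11. G6PC, which releases free glucose from the hepatocyte, was at 7.41, 4.48 and 7.11 RPM against 5.66 RPM in the 2DG control and 8.90 to 10.7 RPM in the others. GYS2, the liver glycogen synthase, was at 2.61, 2.29 and 1.78 RPM against 1.02 RPM and 2.52 to 2.74 RPM. The 2DG control was the lowest untreated library for both of these genes.

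The N-glycan and hexosamine genes also gave no call. Of 38 tested members 0 were called, 2 (MGEA5 and DPM2) were higher and 0 lower at an unadjusted p under 0.05, and the medians were 0.08, 0.05 and 0.11. The 2DG libraries lay above the 4 controls for 3 members (2 with TMM scaling) and below for 1, beside 4.04% and 2.23% of all genes. MGEA5, the enzyme that removes O-linked N-acetylglucosamine from proteins, was at 152 RPM in the 2DG control and 165 to 171 RPM in the other controls. It was at 221, 192 and 265.6 RPM at 1.25, 5 and 10 mM, above every control but not in order of dose. The slope was 0.16 ± 0.04 (edgeR adjusted p = 0.79). DPM2, a subunit of the enzyme that makes dolichol-phosphate mannose, was likewise above all controls at 122, 105 and 126 RPM against 85.1 to 92.9 RPM, with a slope of 0.12 ± 0.04 and the same adjusted p of 0.79. GFPT1, the entry enzyme of the hexosamine pathway, was at 40.5, 56.8 and 50.9 RPM against 42.3 to 47.7 RPM.

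Genes of the unfolded protein response gave no call along the dose. Of 27 tested chaperone and degradation genes, 0 were called, 0 were higher and 2 (CRELD2 and SYVN1) lower at an unadjusted p under 0.05, and the medians were -0.08, -0.03 and -0.04. No member (0) lay outside the 4 controls at all 3 doses in RPM, and 3 lay below them with TMM scaling. HSPA5, the main chaperone of the endoplasmic reticulum and carrier of the element shown above, was at 899.6 RPM in the 2DG control and at 1077, 756 and 752 RPM with increasing dose. The other controls held 880.1 to 974 RPM, so the lowest dose lay above every control and the upper doses below. The slope was -0.09 ± 0.04 (edgeR adjusted p = 0.79). SYVN1, a ubiquitin ligase of the degradation pathway, was at 35.5, 32.7 and 31.9 RPM against 34.7 to 40.8 RPM in the controls. CANX, the lectin chaperone of N-glycosylated proteins, was at 481, 1069 and 809 RPM, but it belongs to the barcode targets and was at 447 to 500.0 RPM in the ASC and AMP controls against 1065 and 1175 RPM in the NaCl and 2DG controls.

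The integrated stress response had 26 tested members, with 0 called and 0 in either direction at an unadjusted p under 0.05. Its medians were 0.10, 0.00 and -0.06. DDIT3, the pro-apoptotic factor CHOP, stayed at 0.93, 1.20 and 0.97 RPM against 0.34 to 1.84 RPM in the controls. ASNS, asparagine synthetase, was at 13.2, 17.8 and 18.0 RPM against 12.4 to 19.3 RPM. CHAC1, which degrades glutathione, was at 2.69, 2.99 and 2.59 RPM against 2.13 to 2.77 RPM. For DDIT3 and ASNS all 3 doses lay inside the range of untreated libraries, and for CHAC1 the 5 mM library lay just above it. ATF3 and GDF15 were lower with 2DG than in the 2DG control, at 53.1, 27.5 and 39.1 RPM against 67.2 RPM and at 199, 138 and 153 RPM against 255 RPM, yet the other controls were lower still for ATF3 (10.8 to 15.6 RPM) and at 74.7 to 134 RPM for GDF15.

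**Figure D2:**
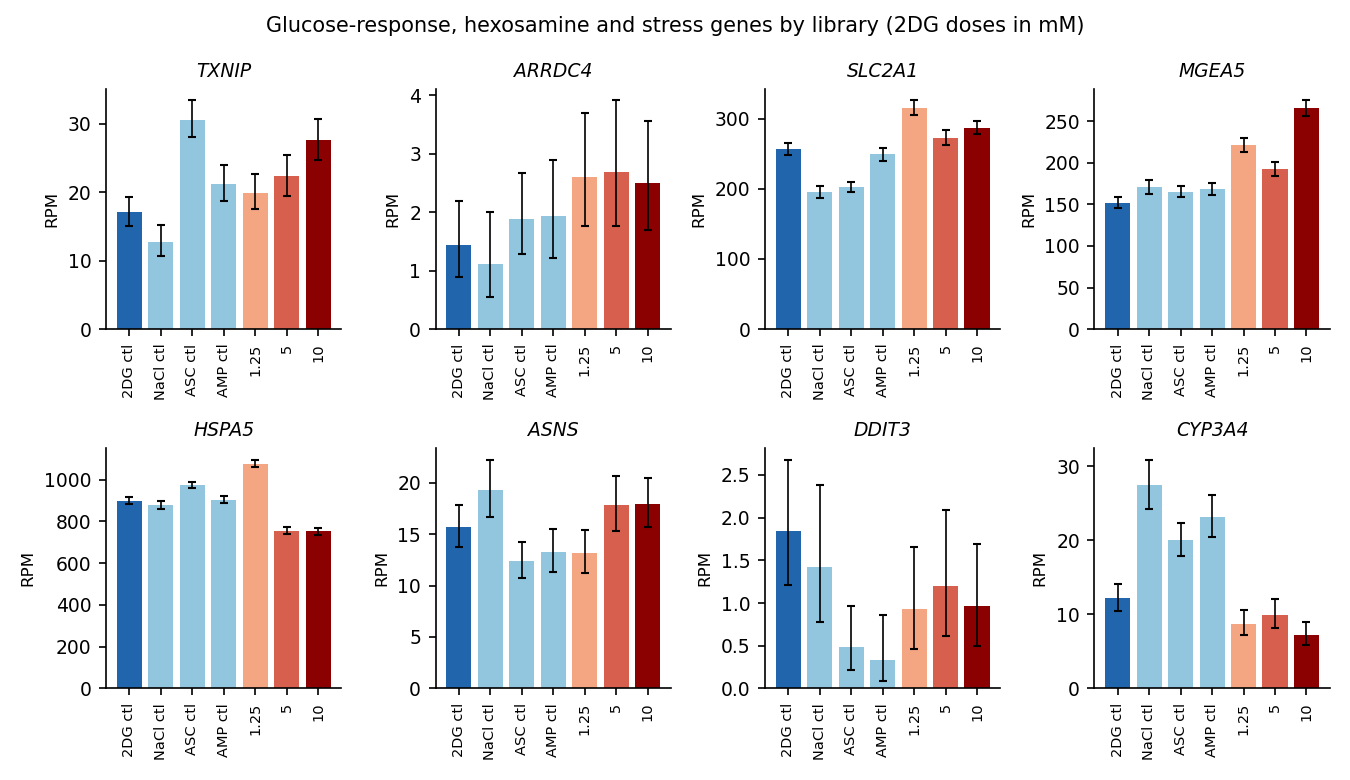
Level in RPM (vertical axis) of 8 genes in the 4 media controls (blue, the matched one dark) and the 3 2DG libraries (orange to dark red, dose in mM), with exact binomial 95% intervals that cover counting error only. TXNIP, ASNS and DDIT3 overlap the controls; ARRDC4, SLC2A1 and MGEA5 lie above them at all 3 doses; HSPA5 is above them at 1.25 mM and below at 5 and 10 mM; and CYP3A4 lies below them at all 3 doses.

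Sterol synthesis genes had 23 tested members, of which 0 were called, 2 (FDFT1 and CYP51A1) were higher and 1 (PMVK) lower at an unadjusted p under 0.05. The medians were 0.14, 0.16 and 0.17, beside 0.13, 0.07 and 0.11 in the NaCl, ASC and AMP controls. FDFT1, squalene synthase, was at 606, 659 and 817 RPM against 546 RPM in the 2DG control and 538 to 615 RPM in the others. Its upper doses lay above every control and its lowest dose did not.

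Fatty acid oxidation and ketogenesis genes, targets of the fasting factor PPAR-alpha, had 23 tested members. None (0) was called by edgeR, 1 (VNN1) was called lower by DESeq2, and 10 were lower and 0 higher at an unadjusted p under 0.05, beside 3.58% and 2.18% of all genes. VNN1, the pantetheinase vanin-1, was at 19.3 RPM in the 2DG control and at 16.8, 13.7 and 10.1 RPM with increasing dose, against 19.5 to 27.9 RPM in the other controls. ANGPTL4, a secreted inhibitor of lipoprotein lipase, was at 9.21 RPM in the 2DG control, at 8.08, 6.38 and 4.61 RPM with increasing dose and at 9.38 to 10.8 RPM in the other controls. In both genes every dose lay below every control and the doses were in order. The slopes were -0.34 ± 0.07 for VNN1 and -0.30 ± 0.06 for ANGPTL4, each with an edgeR adjusted p of 0.79. The DESeq2 adjusted p was 0.014 for VNN1 and 0.067 for ANGPTL4.

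Other members of that list were low already in the 2DG control. FABP1, the liver fatty acid-binding protein, was at 73.2, 78.1 and 72.5 RPM with 2DG and at 92.5 RPM in the 2DG control, but at 141 to 218 RPM in the other controls. The list medians were 0.13, -0.12 and -0.07 with 2DG, and 0.13 to 0.39 in the other controls. Against the mean of the 2 controls on the same side of the barcode split, the medians were -0.24, -0.18 and -0.09.

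Hepatocyte secreted, drug-metabolizing and acute-phase genes had lower medians in the 2DG control than in the other 3 controls, although single members such as ALB, SAA1 and SAA2 did not follow this. Of 21 hepatocyte genes tested, 12 were lower and 0 higher at an unadjusted p under 0.05. The counts were 12 lower and 0 higher of 32 cytochrome P450 and conjugating enzymes, and 9 lower and 0 higher of 15 acute-phase genes, beside 3.58% lower and 2.18% higher of all genes. In the 7-library fit without a barcode term, edgeR and DESeq2 each called 0 members of these lists. The 14 genes that DESeq2 called lower, given below, include secreted liver proteins that these lists leave out, such as LRG1, ITIH4 and VTN. The hepatocyte list had medians of 0.14, -0.07 and 0.02 at the 3 doses relative to the 2DG control, while the NaCl, ASC and AMP controls stood at 0.55, 0.71 and 0.63. The drug-metabolizing list had -0.08, -0.09 and -0.28 with 2DG and 0.59, 0.20 and 0.32 in those controls. The acute-phase list had 0.13, -0.07 and -0.18 with 2DG and 0.29, 0.42 and 0.43 in the controls. At 10 mM the last 2 lists thus had medians below the 2DG control as well. The fit over all 4 controls takes in that difference between untreated libraries, and the part of 2DG in these counts cannot be told apart from it.

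CYP3A4, the main drug-oxidizing enzyme of liver, was at 12.2 RPM in the 2DG control, at 8.76, 9.96 and 7.28 RPM at 1.25, 5 and 10 mM, and at 20.0 to 27.4 RPM in the other controls. Every dose lay below every control. The slope over 7 libraries was -0.45 ± 0.12 (edgeR adjusted p = 0.79), whereas the slope within the 2DG set, fitted over the 16 media libraries with the set as a block, was -0.17 ± 0.11. TAT, a tyrosine aminotransferase of mature hepatocytes, was at 2.69, 2.39 and 0.73 RPM against 2.52 RPM in the 2DG control and 5.30 to 5.96 RPM in the others. ALB, albumin, was at 12274, 22854 and 14620 RPM against 21791 RPM in the 2DG control, and at 14020 to 23406 RPM in the others, with no order of dose. CPS1, the first enzyme of the urea cycle, was at 53.5, 35.2 and 34.2 RPM against 41.8 RPM and 74.0 to 111 RPM.

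SAA1 and SAA2, the acute-phase serum amyloid proteins, were lower at each dose than in the 2DG control. SAA1 was at 1139, 1926 and 1287 RPM against 2982 RPM in the 2DG control and 1914 to 2579 RPM in the others, and SAA2 at 162, 258 and 197 RPM against 432 RPM and 281 to 377 RPM. Neither followed the dose, and at 5 mM SAA1 overlapped the controls in RPM. The genes are near-identical copies that can share reads, so the 2 values are not separate evidence. The slope was -0.23 ± 0.09 for SAA2 (edgeR adjusted p = 0.79), and -0.33 with barcodes 33 to 38 as a term (adjusted p = 0.12 by edgeR and 1.8e-05 by DESeq2).

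**Figure D3:**
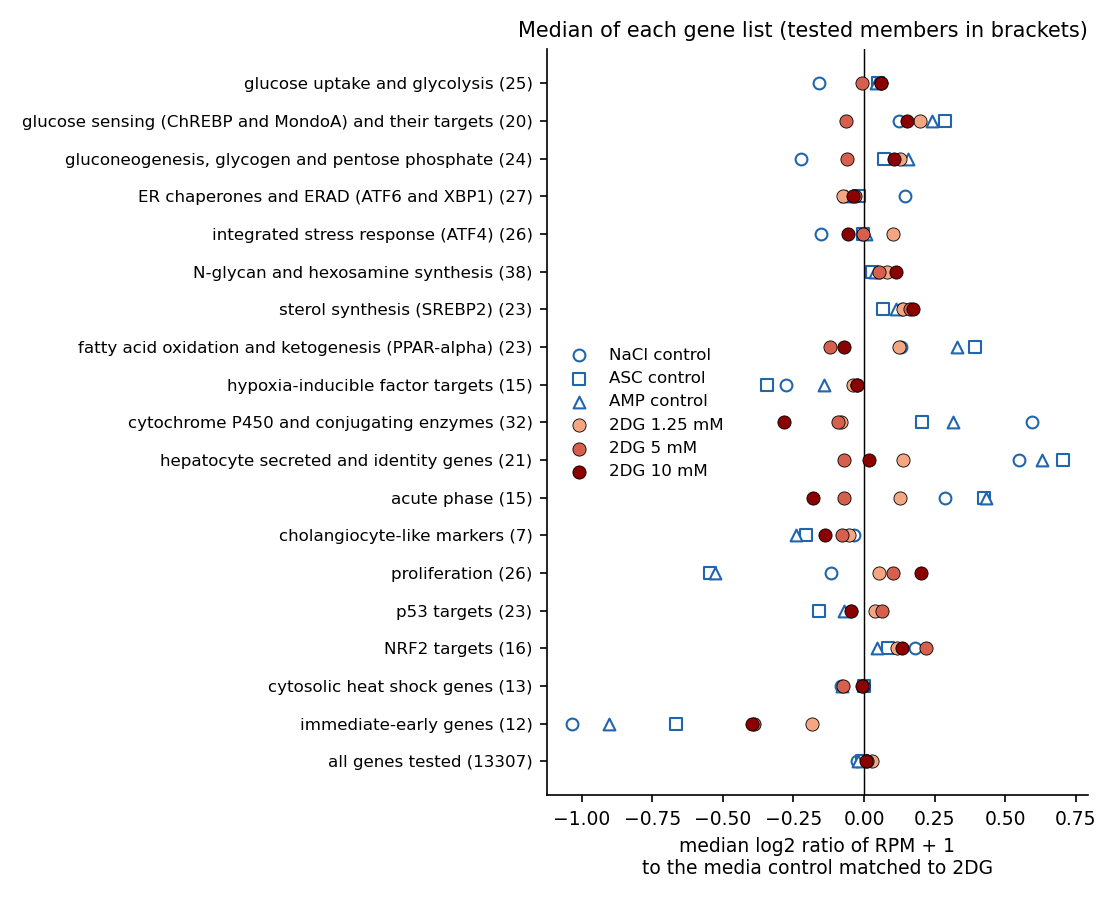
Median log2 ratio of RPM + 1 to the media control matched to 2DG (horizontal axis) over the tested members of each list and over all genes, for the 3 2DG libraries (filled) and the 3 other media controls (open). In the hepatocyte list the 2DG libraries lie at -0.07 to 0.14 and the other controls at 0.55 to 0.71, and in the immediate-early list the 2DG libraries lie at -0.40 to -0.18 and the other controls at -1.04 to -0.67.

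Proliferation genes had 26 tested members, with 0 called and 7 higher and 0 lower at an unadjusted p under 0.05, beside 2.18% and 3.58% of all genes. The medians were 0.05, 0.10 and 0.20 with increasing dose, -0.12 in the NaCl control, and -0.55 and -0.53 in the ASC and AMP controls. CDK1, the mitotic kinase, was at 33.6, 45.6 and 52.8 RPM against 39.1 RPM in the 2DG control and 20.9 to 40.5 RPM in the others. TYMS, thymidylate synthase, was at 224, 235 and 255 RPM against 216 RPM and 192 to 194 RPM, above every control at each dose. List and barcode moved together in the untreated libraries, since the ASC and AMP controls lie on 1 side of the split. Against the mean of the 2 controls on the same side as each dose, the medians were 0.48, 0.19 and 0.27.

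Genes of the p53 response, the pathway that marks DNA damage, gave 0 calls among 23 tested members and 0 in either direction at an unadjusted p under 0.05. The medians were 0.04, 0.06 and -0.05. CDKN1A, the cell-cycle inhibitor p21, was at 726, 598 and 637 RPM against 537 to 702 RPM in the controls. MDM2, the ligase that degrades p53, was at 323, 762 and 506 RPM against 691 RPM in the 2DG control, and it is a barcode target, at 283 and 301 RPM in the ASC and AMP controls. For MDM2 the order of the 2DG libraries was that of the 488 barcode targets.

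NRF2 targets had 16 tested members, with 0 called, 1 (HMOX1) higher and 1 (ABCC3) lower at an unadjusted p under 0.05, and medians of 0.12, 0.22 and 0.14. HMOX1, the stress-induced haem oxygenase, was at 17.3 RPM in the 2DG control and at 23.3, 26.1 and 41.4 RPM with increasing dose, a ratio of 2.32 at 10 mM. The other controls held 18.5 to 26.8 RPM, so only the 10 mM library lay outside the controls. The slope was 0.24 ± 0.07 (edgeR adjusted p = 0.79). It was 0.33 ± 0.06 within the 2DG set, the lowest p of that fit at 1.0e-04 unadjusted, and was not called there either.

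Hypoxia-inducible factor targets (15 tested), cytosolic heat shock genes (13) and cholangiocyte-like markers (7) gave 0 calls, and 0 members in either direction at an unadjusted p under 0.05. The medians at the 3 doses lay between -0.04 and -0.02, between -0.07 and 0.00, and between -0.14 and -0.05. Immediate-early genes (12 tested) also gave 0 calls. Their medians were -0.18, -0.39 and -0.40, and those of the other controls -1.04, -0.67 and -0.90. FOSB, an AP-1 subunit, was at 47.3 RPM in the 2DG control, at 26.3, 12.1 and 15.5 RPM with 2DG and at 3.53 to 5.85 RPM in the other controls. NR4A1, an orphan receptor induced within minutes of a stimulus, was at 24.4 RPM in the 2DG control, at 6.82, 10.2 and 8.73 RPM with 2DG and at 1.18 to 1.32 RPM in the other controls. These were the 2 genes over 2-fold lower at both 5 and 10 mM, and for both the 2DG control was the highest library and all 2DG libraries lay above the other controls.

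The lowest p along the dose belonged to LRG1, chosen for description after its values were seen, as were the other genes of this paragraph except as stated. LRG1 encodes a secreted leucine-rich glycoprotein of the acute phase. It was at 62.7 RPM in the 2DG control, at 59.7, 37.5 and 28.3 RPM at 1.25, 5 and 10 mM, and at 80.7 to 97.9 RPM in the other controls. Every dose lay below every control and the doses were in order, with a ratio of 0.460 to the 2DG control at 10 mM. The slope was -0.46 ± 0.06 with an edgeR adjusted p of 0.43, and DESeq2 gave an adjusted p of 1.1e-07. It was the 1 gene edgeR called with barcodes 33 to 38 as a term (slope -0.45, adjusted p = 0.025), and over the 4 libraries outside those barcodes the slope was -0.44 (adjusted p = 0.44). Within the 2DG set the slope was -0.35 ± 0.09 and was not called.

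The other 13 genes that DESeq2 called lower were HPX, VTN, ITIH4, C8A, ANG, SERPINC1, SERPIND1, F12, AGXT, TDO2, GATM, AKR1C4 and VNN1. HPX, which scavenges haem from plasma, was at 80.2 RPM in the 2DG control, at 94.7, 54.2 and 52.3 RPM with increasing dose and at 124 to 151 RPM in the other controls. VTN, vitronectin, was at 290 RPM in the 2DG control, at 282, 237 and 201 RPM and at 367 to 414 RPM. For VTN every dose lay below every control, while for HPX the 1.25 mM library lay above the 2DG control. ANG, angiogenin, was at 6.82, 5.28 and 4.21 RPM with 2DG against 8.66 RPM in the 2DG control and 16.6 to 20.4 RPM in the others. C8A, a subunit of the complement attack complex, was at 13.6, 7.27 and 6.39 RPM against 11.5 RPM and 20.5 to 24.9 RPM. For these 5 named genes, LRG1 included, the 2DG control was below the other controls as well. Of the 14 genes called lower by DESeq2, 12 matched a promoter window and 3 of those held the pattern bound by STAT3, beside 6.57% of all windows. These 3 are LRG1, ITIH4 and VTN, the ones shown above. The genes were chosen by their values and the count is small, so nothing is read from it.

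IFITM10, a membrane protein of the interferon-induced transmembrane family, was the 1 gene DESeq2 called higher. It was at 61.7 RPM in the 2DG control, at 66.8, 77.5 and 101 RPM with increasing dose and at 55.9 to 60.1 RPM in the other controls, a ratio of 1.63 at 10 mM. The doses were in order and all above the controls, and here the 2DG control was near the others. The slope was 0.20 ± 0.04 (adjusted p = 0.79 by edgeR and 0.014 by DESeq2). UBE2T, a ubiquitin-conjugating enzyme of the Fanconi pathway, had the same shape at 49.5, 53.9 and 71.3 RPM against 42.8 RPM and 41.8 to 44.6 RPM, with a DESeq2 adjusted p of 0.067. HULC, a liver long non-coding RNA, was lower than every control at 14.6, 14.2 and 14.2 RPM against 21.2 to 30.9 RPM, equally at all 3 doses.

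**Figure D4:**
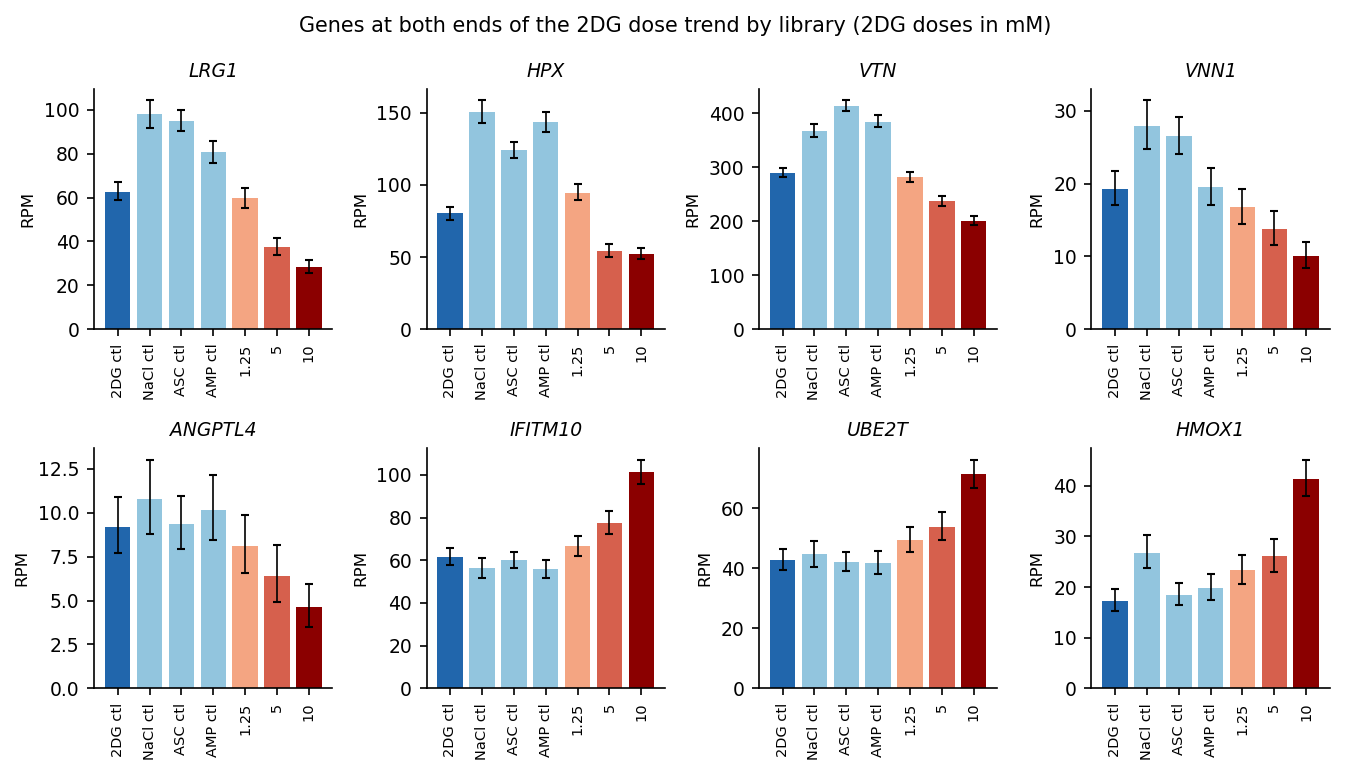
Level in RPM (vertical axis) of 8 genes in the 4 media controls (blue, the matched one dark) and the 3 2DG libraries (orange to dark red, dose in mM), with exact binomial 95% intervals that cover counting error only. LRG1, VTN, VNN1 and ANGPTL4 are lower and IFITM10 and UBE2T higher than every control at each dose and in order of dose, while HPX overlaps the controls at 1.25 mM and HMOX1 at 1.25 and 5 mM.

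The slope on dose with 2DG was then compared with the mean slope of NaCl, AMP and ASC, each given in the same medium up to the same 10 mM, over 16 libraries with a term for each chemical's own control. The ASC and AMP controls have barcodes 34 and 35, but 0 of the dosed ASC and AMP libraries lie in barcodes 33 to 38. The ASC and AMP slopes, and the differences below, therefore take in the barcode split. With barcodes 33 to 38 as a term, chosen after the data were seen, edgeR called 0 higher and 0 lower. Of 13591 genes tested, 0 (0%) had a higher and 0 (0%) a lower slope with 2DG at an edgeR adjusted p under 0.05, and DESeq2 gave 0 in both directions. At an unadjusted p under 0.05, 129 (0.949%) were higher and 181 (1.33%) lower. The lowest p was that of FOSB, with a difference of -1.06 ± 0.20, a gene whose level in the 2DG control was the highest of the 4 controls. The difference for LRG1 was -0.40 ± 0.11, for VNN1 -0.28 ± 0.08, for ANGPTL4 -0.40 ± 0.12, for HMOX1 0.20 ± 0.07 and for TXNIP 0.27 ± 0.10, and none of these passed the adjusted threshold.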

How the data were processed

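RNA of 3 cultures per condition was pooled by the authors into 1 AmpliSeq library, and reads from 5 chips were aligned to hg19 transcript targets with TMAP in the ampliSeqRNA plugin. The deposited files hold read counts per target and RPM made by the authors, that is counts per 1000000 reads of a library with no further normalization. Columns were tied to samples through the barcode in the labels. The 10 spike-in targets held 0 reads and were left out. Groups came from the titles and dose from the labels.

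Counts were tested with edgeR 4.0.16 (filterByExpr, TMM, quasi-likelihood) in R 4.3.3, with Benjamini-Hochberg adjustment over all genes tested, two-sided. The standard error after ± is the absolute slope over the square root of the quasi-likelihood F statistic. DESeq2 1.42.0 was an alternative. An adjusted p that DESeq2 left undefined stayed so. RPM values were compared on log2(RPM + 1) with no test. The fits were checked on simulated counts. Intervals are exact Clopper-Pearson, from scipy 1.17.1, and figures were drawn with matplotlib 3.10.9. Since each condition is 1 pooled library, p-values measure the scatter of libraries about a slope, and depths of 9843225 to 16425527 reads limit genes of a few RPM.

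The series, its members and the 18 gene lists (409 genes, 374 of them tested) were chosen with earlier results of these data known. Named genes were up to 4 members per list with the largest mean ratio at 5 and 10 mM, 16 genes fixed by symbol, and genes called in the fit or past 2-fold at both upper doses outside the control range (0 genes). Members of lists counted at an unadjusted p, and genes stated so, were named after their values were seen. The term for barcodes 33 to 38, the 4 libraries outside them, controls on the same side of that split, and alternatives of the count of genes outside the control range were also chosen after seeing the data. The promoter table has GRCh38.p14 coordinates and the files hg19 targets, so no target is placed on a chromosome here.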

Additional observations from a re-analysis of the deposited data

Results flagged for a closer look

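For 7 of 64 genes examined, 1 of the 4 media controls lay far from the other 3, by the gap to its neighbour as a share of the whole range on log2(RPM + 1) exceeding Dixon's 95% critical value for 4 samples. Chance flags about 1 in 20 groups, but that rate does not apply here, since many of these genes were named for their ratio to the 2DG control, which favours genes where that control is extreme. The 2DG control was the library apart in 6 of the 7, and nothing is read from that count.
NR4A1 (share 0.974) was at 24.4 RPM there and at 1.18 to 1.32 RPM in the other 3. GYS2 (0.899) was at 1.02 RPM against 2.52 to 2.74 RPM. TDO2 (0.893), which degrades tryptophan, was at 74.5 RPM against 150 to 163 RPM. AGXT (0.862), a peroxisomal aminotransferase, was at 61.3 RPM against 113 to 124 RPM, and TAT (0.853) at 2.52 RPM against 5.30 to 5.96 RPM. TYMS (0.878) was at 216 RPM against 192 to 194 RPM. For SYVN1 (0.859) the NaCl control was apart, at 34.7 RPM against 39.9 to 40.8 RPM. The levels of GYS2 and TAT rest on few reads, and this rule takes no account of counting error.
For TDO2, AGXT and TAT, ratios to the 2DG control and slopes over all 4 controls therefore start from different untreated levels. What set the 2DG control apart was not tested.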

How the results depend on the processing

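The trend gave 0 genes higher and 0 lower in edgeR under every alternative of scale, normalization, filter and block, with 3 exceptions. DESeq2 called 1 higher and 14 lower, 1 of them in the lists. The term for barcodes 33 to 38 gave 1 lower in edgeR, and 1 higher and 20 lower (5 of them in the lists) in DESeq2. Leaving out 1 library gave 0 to 5 lower, the 5 without the 2DG control, and 422 to 1379 genes at an unadjusted p under 0.05 against 767. The cause of these changes was not tested. The difference of slopes gave 0 calls under all 7 alternatives. The 12 slopes that were recomputed kept their direction under all 18 alternatives. On the main dose scale LRG1 ranged from -0.50 to -0.35, CYP3A4 from -0.50 to -0.17 and TXNIP from 0.03 to 0.24.

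Counts past 2-fold moved most with the pseudocount and the control. With a pseudocount of 0.1 RPM they were 101 higher and 693 lower at 1.25 mM, 89 and 138 at 5 mM, and 81 and 167 at 10 mM, since genes near 0 then pass. Against the mean of the 4 media controls they were 4 higher and 36 lower at 1.25 mM, 283 and 41 at 5 mM, and 12 higher at 10 mM. With at least 10 reads in every library 7 genes were higher at 1.25 mM. Against controls on the same side of the barcode split 16 were lower at 1.25 mM and 27 at 5 mM. Of 270 alternative values of the list medians 60 moved by more than the spread of the controls, 59 of them under these other choices of control. The genes outside the control range numbered 352 above and 421 below with TMM scaling, and 692 to 1353 above and 370 to 945 below with 1 library left out, where fewer libraries have to agree in position. Replicate numbers only name samples and give no pairing, but each chemical in medium had its own matched control. With control set entered as a block over 16 media libraries, edgeR called 0 genes higher and 0 lower.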

Other observations

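Some genes lay further from the range of the 4 media controls at all 3 doses than most, without following the dose. They were picked for that gap after their values were seen, so the values are a description with no test, and none was called in the dose trend. FKBP2, a proline isomerase of the endoplasmic reticulum, was at 69.6, 65.5 and 69.6 RPM at 1.25, 5 and 10 mM against 91.9 to 111 RPM in the controls. ERP27, a disulfide isomerase relative in the same compartment, was at 1.52, 1.79 and 1.38 RPM against 2.64 to 5.30 RPM. AMD1, which commits S-adenosylmethionine to polyamine synthesis, was higher than every control at 76.3, 80.6 and 75.7 RPM against 47.5 to 60.02 RPM. SLCO3A1, an organic anion transporter, was at 36.4, 39.2 and 38.6 RPM against 28.8 to 29.3 RPM, a narrow range in the untreated libraries. SIRT1, the NAD-dependent deacetylase that senses nutrient state, was at 12.0, 11.2 and 12.0 RPM against 8.63 to 9.14 RPM. For these genes the lowest dose, which sits on the other side of the barcode split, had about the level of the upper doses. The way the genes were picked favours such likeness, so nothing is read from it.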
